A study of Mus musculus with 12 samples.

Results

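The genes described here take up fatty acids and burn them in the heart. A list of 33 gene symbols was looked up in a table of 54178 gene entries from mouse whole hearts, and all 33 were found. They were sorted into 9 steps, from entry into the cell to electron transfer. Cited4 flox/flox mice (Flox) were compared with KO mice, made by crossing Flox mice with aMHC-cre mice. The aMHC promoter drives cre in cardiomyocytes, so Cited4, a transcriptional co-regulator, is meant to be removed there. Whether the other cells of the heart keep it was not measured. Mice of both genotypes were sedentary or had voluntary wheel running for 8 weeks, and each of the 4 groups holds 3 libraries. All groups share the floxed alleles. No group carries cre with intact Cited4 alleles, so the KO label stands for both the loss of the gene and the transgene. No label or text used here gives the ages of the mice.

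The words for treatment in the labels conflict with bracketed codes in the same titles, where an E stands beside the sedentary word and an S beside the exercise word. Groups follow the words and are called labelled sedentary and labelled exercise. If the codes were right, every exercise direction and the interaction would turn, and the comparisons of KO with Flox within a label would swap names. The average of KO over Flox would stay. The labels do not say which animal gave which library, so each p-value reflects only how far libraries of a group spread, which may be technical. Library totals ran from 17465401 to 20467260 counts, of which the 33 genes took 1.62% to 2.39%. Cited4 had 192 to 431 counts in Flox libraries and 0 to 5 in KO libraries. Levels below are CPM (counts scaled to the same library total, with edgeR's TMM factors), which are not corrected for gene length.

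The adult heart draws most of its energy from fatty acids. Lipoprotein lipase frees them from circulating triglyceride, the membrane proteins CD36 and FATP1 and the binding protein FABP3 bring them through the cell, and acyl-CoA synthetase ties them to coenzyme A. The carnitine shuttle carries them into mitochondria, where repeated rounds of dehydrogenation, hydration, dehydrogenation and thiolysis shorten the chain. Auxiliary enzymes handle double bonds, and the electron transfer flavoprotein passes electrons from the acyl-CoA dehydrogenases to the respiratory chain. Many of these genes are targets of the nuclear receptor PPARA, which binds as a pair with RXR to direct repeats of AGGTCA with 1 base between them.

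That repeat was looked for in the RefSeq promoter windows (GRCm38.p6, 250 bases before to 50 after each annotated start), on both strands, with up to 2 of its 12 letters different. Of the 33 genes, 28 had a window, and 3 of the 28 held a match (10.7%), against 4.4% of 27025 genes with a window. The 3 windows are shown because they are the ones with a match, in capitals. They are read along the gene's own strand, the minus strand in each case. Cd36 is at chr5:17835847-17836146, Echs1 at chr7:140116372-140116671 and Etfa at chr9:55512194-55512493.
Cd36: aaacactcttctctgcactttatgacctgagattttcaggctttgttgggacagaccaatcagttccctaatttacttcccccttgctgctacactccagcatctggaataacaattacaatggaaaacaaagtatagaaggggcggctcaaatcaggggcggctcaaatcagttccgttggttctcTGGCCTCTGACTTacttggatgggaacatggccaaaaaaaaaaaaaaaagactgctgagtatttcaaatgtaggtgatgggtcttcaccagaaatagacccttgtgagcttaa
Echs1: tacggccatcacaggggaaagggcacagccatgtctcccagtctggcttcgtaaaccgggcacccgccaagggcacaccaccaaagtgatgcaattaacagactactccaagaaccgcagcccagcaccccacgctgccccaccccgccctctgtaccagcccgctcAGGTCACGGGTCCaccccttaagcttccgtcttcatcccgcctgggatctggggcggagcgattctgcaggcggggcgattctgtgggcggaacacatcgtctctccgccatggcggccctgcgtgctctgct
Etfa: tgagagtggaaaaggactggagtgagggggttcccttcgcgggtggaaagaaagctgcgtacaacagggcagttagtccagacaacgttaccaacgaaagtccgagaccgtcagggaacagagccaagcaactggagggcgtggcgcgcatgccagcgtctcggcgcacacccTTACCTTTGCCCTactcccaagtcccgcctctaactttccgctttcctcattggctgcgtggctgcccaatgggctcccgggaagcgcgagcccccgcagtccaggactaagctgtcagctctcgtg
The match lies 63 bases before the start in Cd36, 83 in Echs1 and 77 in Etfa. In Cd36 and Etfa it lies on the opposite strand, so the capitals show its reverse complement. The Cd36 window lies inside the annotated gene, which has several starts. A match describes letters and not binding.

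Under the sedentary label all 33 genes stood lower in KO than in Flox hearts. The median log2 difference was -0.42, against 0.00 over the 15226 genes with enough counts to be tested, and it ran from -0.72 (Acot1) to -0.09 (Cpt1a). None of the 33 passed edgeR's quasi-likelihood test with Benjamini-Hochberg adjustment over all genes at 0.05, against 0.125% of all genes. Limma voom called none of them, and DESeq2 called 5 of the 33 and 2.59% of all genes. At an unadjusted p under 0.05, 21 of the 33 were lower (5.41% of all genes), and in 19 all 3 KO libraries lay below all 3 Flox libraries (7.93% of all genes). Of all genes, 50% had a difference below 0. The count of 33 below 0 was 31 with library totals alone as scaling, 31 with mean atrial marker level as a covariate and 27 when libraries were scaled to cardiomyocyte markers. The last scaling moved the median of all genes to 0.31 and that of the 33 genes to -0.13. Library totals alone moved these medians to 0.18 and -0.25. A scaling shifts all genes of a library alike, so the gap between the medians could hardly change and tells nothing about the choice. It was -0.44 scaled to cardiomyocyte markers and -0.42 with TMM scaling. Leaving out KO labelled sedentary 1 raised the number of the 33 that passed to 13, while calls over all genes rose from 19 to 479 (3.07%). Leaving out KO labelled exercise 3 gave 1 of the 33, with 0.276% of all genes called. It was 0 with any of the other 10 libraries left out.

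**Figure D1:**
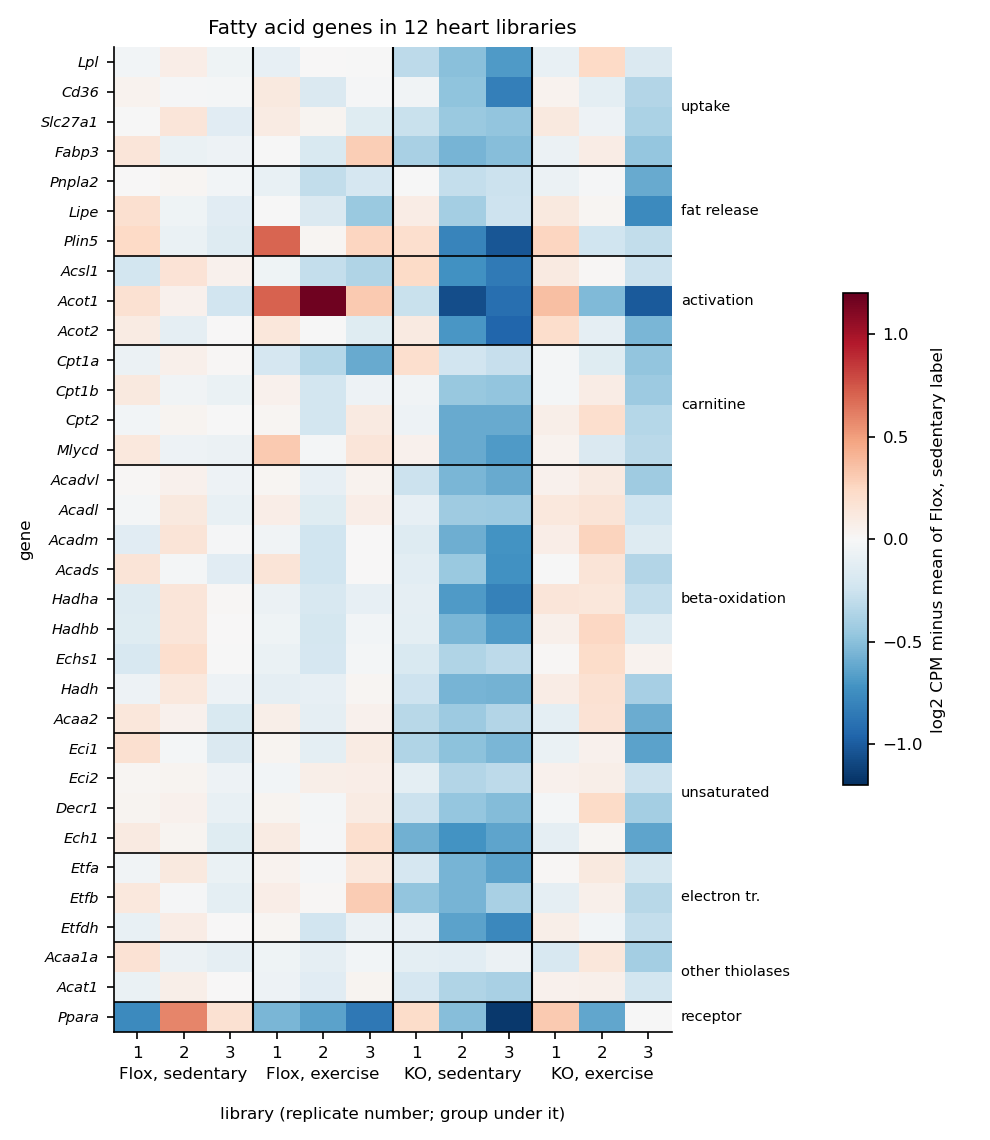
Heat map of log2 CPM minus the mean of the Flox libraries labelled sedentary, for 33 genes (rows, by step) in 12 libraries (columns, by group and replicate number). All 33 rows are below 0 in KO labelled sedentary 2 and 3, as are 26 rows in library 1 of that group and 32 in KO labelled exercise 3.

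All 4 genes of entry into the cell had separate groups under the sedentary label. Lpl (chromosome 8, 68880491 to 68907448 on GRCm38, as for all gene positions below) encodes lipoprotein lipase. It stood at 4973, 5352 and 4910 CPM in Flox labelled sedentary and at 4070, 3583 and 3170 CPM in KO. The groups did not overlap, and the log2 difference was -0.49 ± 0.14 (SE; edgeR adjusted p = 0.167). Cd36 (chromosome 5, 17781690 to 17888801), the fatty acid translocase, stood at 1368, 1322 and 1307 CPM in Flox and at 1292, 953 and 756 CPM in KO. KO library 1 lay just under the lowest Flox library, while libraries 2 and 3 lay far below (-0.41 ± 0.18, adjusted p = 0.335). Fabp3, the heart fatty acid binding protein, was at 2919 ± 255 CPM in Flox and 2084 ± 123 in KO (SD, n = 3 each; -0.49 ± 0.16, adjusted p = 0.232 by edgeR). Slc27a1, which encodes FATP1, was at 243 ± 23.7 and 184 ± 14.6 CPM (-0.40 ± 0.14). Fabp3 had the highest level per length of the 33 genes, 3243 CPM per kb of exon over all libraries, and Lpl came next at 1138.

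Genes that release stored fat did not separate the groups. Pnpla2, the triglyceride lipase ATGL, stood at 257, 261 and 252 CPM in Flox labelled sedentary and 255, 210 and 215 CPM in KO (-0.18 ± 0.15). Lipe, hormone-sensitive lipase, was at -0.18 ± 0.21. Plin5 (chromosome 17, 56111601 to 56117596), a coat protein of lipid droplets in oxidative tissue, stood at 121, 96.7 and 92.1 CPM in Flox and 118, 59.1 and 50.3 CPM in KO. The first KO library lay within the Flox range and the other 2 below it (-0.45 ± 0.30, edgeR adjusted p = 0.555).

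Activation genes varied between the KO libraries. Acsl1 (chromosome 8, 46471037 to 46536051), the main long-chain acyl-CoA synthetase of the heart, stood at 581, 760 and 701 CPM in Flox labelled sedentary and at 792, 408 and 377 CPM in KO. KO library 1 was above all Flox libraries and the other 2 were below them all (-0.37 ± 0.24, edgeR adjusted p = 0.527). Acot1 and Acot2 encode a cytosolic and a mitochondrial acyl-CoA thioesterase, which split acyl-CoA back to the free acid. Acot1 (chromosome 12, 84009490 to 84018371) stood at 16.8, 15.4 and 12.6 CPM in Flox and 12.3, 7.0 and 7.8 CPM in KO (-0.72 ± 0.35, adjusted p = 0.401). The groups did not overlap, but the gap from the lowest Flox to the highest KO library was small. Acot2 (-0.44 ± 0.25) followed Acsl1, with KO library 1 (78.9 CPM) above all Flox libraries and the other 2 (45.2 and 38.0 CPM) below them all. The 2 genes are neighbours, and 29.9% of the 31-base words of annotated Acot2 transcripts also occur in Acot1 transcripts, so reads can be split between them and their values are uncertain to that extent.

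In the carnitine shuttle, Cpt2 (chromosome 4, 107903981 to 107923610), the inner-membrane carnitine palmitoyltransferase, was the one gene with separate groups. It stood at 193, 201 and 196 CPM in Flox labelled sedentary and 189, 130 and 130 CPM in KO (-0.40 ± 0.17, edgeR adjusted p = 0.329). Cpt1b (chromosome 15, 89416405 to 89425863), the muscle form of the outer-membrane enzyme and the gate of the pathway, stood at 645, 577 and 563 CPM against 578, 435 and 428 CPM (-0.31 ± 0.16, adjusted p = 0.427). KO library 1 again lay inside the Flox range. Mlycd, malonyl-CoA decarboxylase, which removes the inhibitor of that gate, was at -0.38 ± 0.18. Cpt1a, the liver form, had the smallest difference of the 33 genes (-0.09 ± 0.15). Per kb of exon, Cpt1a made up 6.14% ± 0.62 of the sum of both forms in Flox labelled sedentary and 7.05% ± 0.10 in KO (SD, n = 3 each). Under the exercise label the share was 5.03% ± 0.70 in Flox and 5.79% ± 0.46 in KO.

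**Figure D2:**
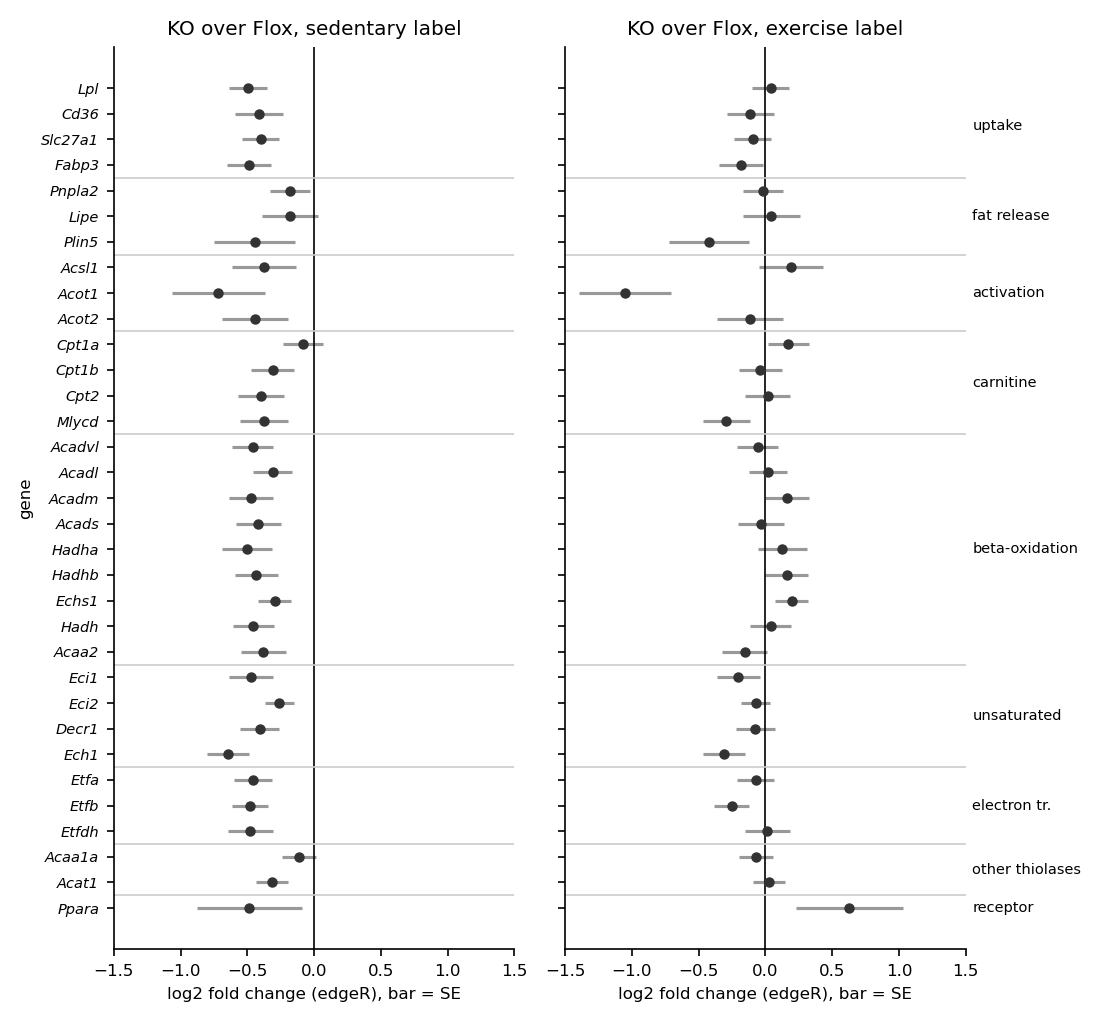
Log2 fold changes of KO over Flox with standard errors (edgeR) for 33 genes, under the sedentary label (left) and the exercise label (right), ordered by step. All points are below 0 on the left, and 19 are below and 14 above 0 on the right.

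All 9 genes of mitochondrial beta-oxidation were lower in KO under the sedentary label, 8 of them at an unadjusted p under 0.05, with a median of -0.43. Of the acyl-CoA dehydrogenases, Acadvl (chromosome 11, 70010183 to 70015411), for very long chains, stood at 967, 992 and 919 CPM in Flox and 802, 657 and 632 CPM in KO, with no overlap (-0.46 ± 0.15, edgeR adjusted p = 0.216). Acadm (chromosome 3, 153922357 to 153944632), for medium chains, stood at 812, 995 and 886 CPM in Flox and 803, 596 and 545 CPM in KO (-0.47 ± 0.17, adjusted p = 0.246). Its KO library 1 lay just under the lowest Flox library. Acadl, for long chains, was at -0.31 ± 0.15 and Acads, for short chains, at -0.42 ± 0.17. Hadha and Hadhb encode the alpha and beta subunits of the trifunctional protein, which carries out the last 3 reactions on long chains. The genes lie head to head on chromosome 5, 85 bases apart (Hadha 30118304 to 30155162 on the minus strand, Hadhb 30155248 to 30184593 on the plus strand). Hadha stood at 1181, 1456 and 1326 CPM in Flox and 1225, 824 and 748 CPM in KO (-0.50 ± 0.18, adjusted p = 0.259), and Hadhb was at -0.43 ± 0.16. KO library 1 lay inside the Flox range for both and the other 2 below it. For shorter chains, Echs1, the enoyl-CoA hydratase (-0.29 ± 0.12), Hadh, the hydroxyacyl-CoA dehydrogenase (-0.45 ± 0.15), and Acaa2, the thiolase (-0.38 ± 0.17), were also below 0.

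The 4 auxiliary enzymes for unsaturated chains had separate groups in every case. Ech1 (chromosome 7, 28825217 to 28832247), which shifts double bonds of dienoyl-CoA, stood at 1215, 1150 and 1020 CPM in Flox labelled sedentary and 756, 685 and 727 CPM in KO. The 3 KO libraries lay close together, library 1 among them, and far below the Flox libraries. Its difference of -0.64 ± 0.16 had the smallest p of the 33 genes (edgeR adjusted p = 0.121; DESeq2 adjusted p = 0.00321). Eci1 and Eci2, the enoyl-CoA isomerases, were at -0.47 ± 0.16 and -0.26 ± 0.11, and Decr1, the dienoyl-CoA reductase, at -0.41 ± 0.15.

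The 3 electron transfer genes also had separate groups. Etfb (chromosome 7, 43444083 to 43457800), the beta subunit of the electron transfer flavoprotein, stood at 584, 532 and 496 CPM in Flox labelled sedentary and 385, 364 and 408 CPM in KO (-0.48 ± 0.13, edgeR adjusted p = 0.165). As for Ech1, KO library 1 lay with libraries 2 and 3. The alpha subunit Etfa (chromosome 9, 55454508 to 55512243) stood at 506, 567 and 494 CPM in Flox and 452, 355 and 334 CPM in KO (-0.46 ± 0.14, adjusted p = 0.187). Etfdh (chromosome 3, 79603788 to 79629500), the dehydrogenase that passes the electrons to ubiquinone, stood at 420, 475 and 449 CPM in Flox and 417, 287 and 262 CPM in KO (-0.48 ± 0.17, adjusted p = 0.247). Here library 1 was barely below the lowest Flox library.

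Outside these steps the differences were smaller or uneven. Acat1, the mitochondrial thiolase of ketone body use, stood at 419, 467 and 446 CPM in Flox labelled sedentary and 386, 347 and 339 CPM in KO, with no overlap (-0.32 ± 0.12, edgeR adjusted p = 0.269). The peroxisomal thiolase Acaa1a was at -0.11 ± 0.13. Ppara (chromosome 15, 85734983 to 85802819), the receptor, had a low level that varied widely, at 10.1, 26.1 and 19.7 CPM in Flox and 20.3, 12.1 and 7.7 CPM in KO (-0.48 ± 0.39, adjusted p = 0.645). Its groups overlapped almost fully.

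**Figure D3:**
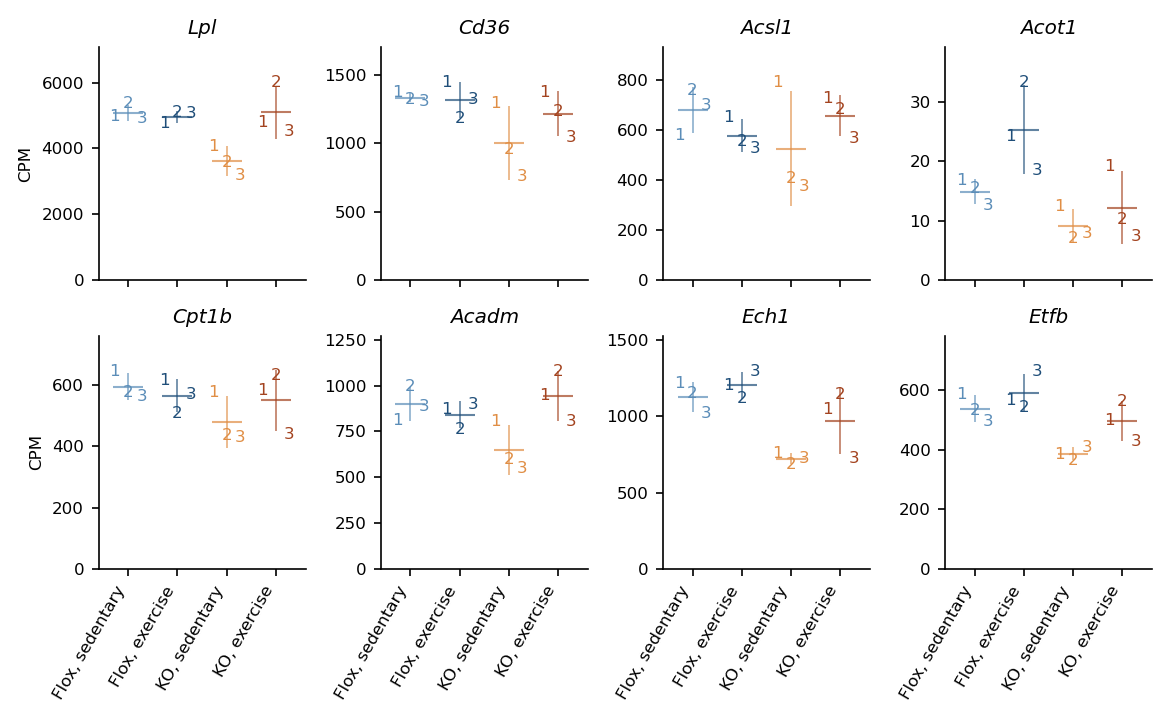
CPM of 8 genes from successive steps in 12 libraries, each shown as its replicate number, with the group mean (horizontal mark) and SD (vertical line). In Ech1 and Etfb the 3 KO libraries labelled sedentary lie together below the Flox libraries, while in Acsl1 library 1 is above them.

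The 3 KO libraries labelled sedentary were not alike. Relative to the mean of the Flox libraries of the same label, the mean log2 CPM of the 33 genes differed by -0.13 in KO library 1, -0.52 in library 2 and -0.59 in library 3. The steps differed in how far library 1 shared the lower level. Its difference was -0.33 for the auxiliary enzymes, -0.26 for uptake, -0.26 for electron transfer and -0.18 for beta-oxidation, and 0.02 for activation, 0.04 for the carnitine shuttle and 0.10 for release of stored fat. In library 3 the same steps stood at -0.50, -0.62, -0.60, -0.58, -0.90, -0.51 and -0.51. With libraries 2 and 3 both left out, a choice made after seeing the data, 26 of the 33 genes were below 0 with a median of -0.13. In that fit the lone KO library is assumed to vary like the other groups. No gene of the 33 passed there, and 2 had p under 0.05 before adjustment. Ech1 stood at -0.58 ± 0.23 and Etfb at -0.48 ± 0.19 in that fit (edgeR adjusted p = 0.732 and 0.721), close to their values with all libraries, whereas Acsl1 was at 0.21 ± 0.20. The 7 genes above 0 in it were Acsl1, Cpt1a (0.20), Plin5 (0.19), Ppara (0.11), Acot2 (0.10), Lipe (0.08) and Mlycd (0.05).

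**Figure D4:**
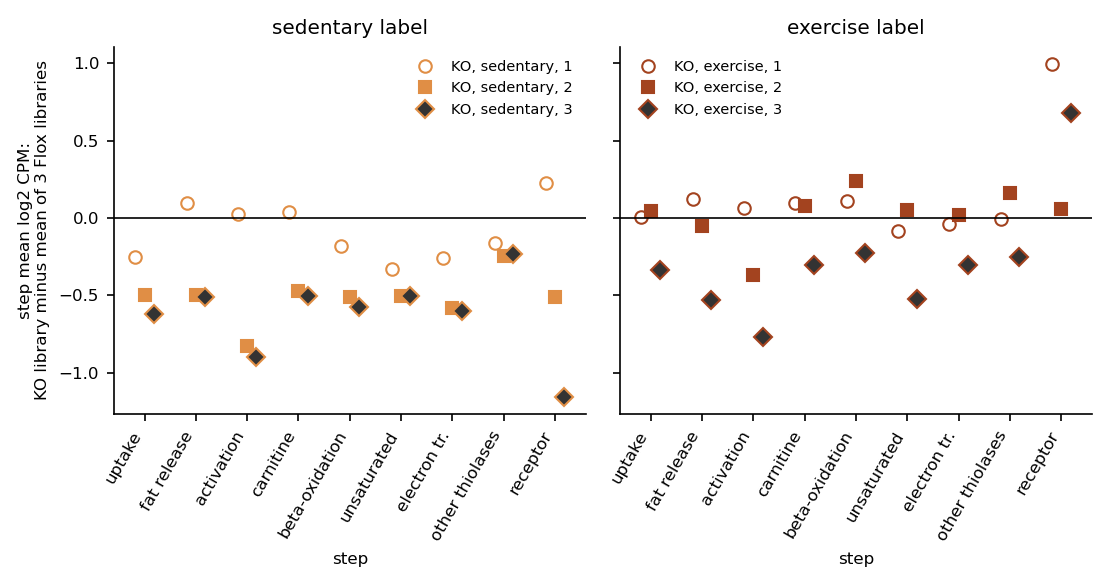
Mean log2 CPM of each step in each KO library minus the mean of the 3 Flox libraries of the same label. Under the sedentary label library 1 lies above libraries 2 and 3 in all 9 steps, and under the exercise label library 3 is the lowest in all steps but the receptor.

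Markers of heart regions and other cells moved with the same comparison. The 18 atrial cardiomyocyte markers had mean log2 CPM of 2.50, 2.42 and 5.49 in Flox labelled sedentary and 5.09, 6.93 and 7.48 in KO. Their summed level ran from 1127 to 6216 CPM in Flox and from 3001 to 26358 CPM in KO. Myl7, the atrial myosin light chain, stood at 1.24, 0.00 and 515 CPM in Flox and 126, 1318 and 2512 CPM in KO. The 2 libraries with the highest atrial markers were the 2 with the lowest mean of the 33 genes. Within the other libraries, Flox labelled sedentary 3 had more Myl7 than KO library 1 and a mean of the 33 genes of 8.26 log2 CPM against 8.19. Under the exercise label the atrial means were 2.36, 6.08 and 2.88 in Flox and 5.77, 2.34 and 5.35 in KO. Myl7 stood there at 0.06, 389 and 1.27 CPM in Flox and 309, 0.05 and 506 CPM in KO. Some libraries of both labels thus held almost no Myl7. In the same order the means of the 33 genes were 8.36, 8.22 and 8.29 in Flox and 8.36, 8.35 and 7.94 in KO. All 18 cardiomyocyte markers had differences below 0 (median -0.32, summed level 81437 to 87575 CPM in Flox and 62502 to 77039 in KO), as had the 4 tested ventricular markers (median -0.67). With the atrial mean as a covariate the median of the 33 genes was -0.23 and 1 gene had an unadjusted p under 0.05. Of 13 adipocyte markers 4 rose in KO (edgeR, adjusted p at or under 0.05), and their summed level, mostly Fabp4, ran from 822 to 1066 CPM in Flox and 804 to 965 in KO. Adipoq was at 0.16 to 0.41 CPM in Flox and 6.12 to 16.4 in KO, and the brown fat gene Ucp1 at 0.00 to 3.89 and 22.8 to 96.9 CPM. The 6 tested brown adipocyte markers as a list summed to 447 to 580.2 CPM in Flox and 403 to 579.5 in KO, with 4 above 0 and 2 below. Those below were the abundant Cox8b, at 334 to 453 CPM in Flox and 257 to 352 in KO, and Ppargc1a, at 75.8 to 104 and 63.9 to 84.2 CPM, which cardiomyocytes express too. Lipe, itself on the adipocyte list, did not rise. Mean CPM was also lower in KO for Fabp4 (571 to 468), Plin4 (205 to 169), Aqp7 (41.0 to 30.8) and Pparg (9.3 to 8.4). It was higher for Adipoq, Cidec, Plin1, Retn, Cfd, Pck1, Cebpa and Cidea. The 11 fibroblast markers had a median of 0.69 and all 9 macrophage markers were above 0 (0.51), while 14 endothelial markers, with Cd36 among them, had a median of -0.15. Only the atrial mean was used as a covariate. It averaged 3.47 in Flox and 6.50 in KO, so the fit cannot part the atrial share from the genotype. The part of the other cells in the lower values was not tested. In whole hearts fewer cardiomyocytes, less RNA per cardiomyocyte and a larger share of atrial tissue cannot be told apart.

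**Figure D5:**
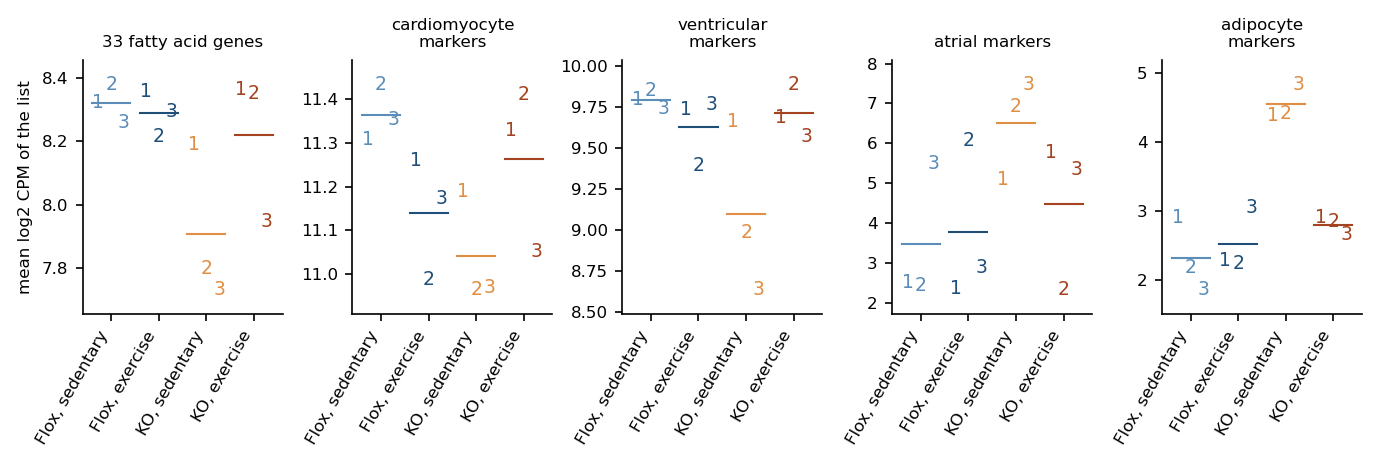
Mean log2 CPM of the 33 genes and of 4 marker lists in 12 libraries, each shown as its replicate number, with group means as lines. KO labelled sedentary 2 and 3 are lowest for the 33 genes and highest for atrial markers; the vertical scales differ between panels and do not start at 0.

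Under the exercise label KO and Flox hearts differed little in these genes. Of the 33, 19 were below 0 and 14 above, with a median of -0.04 (-0.01 over all genes). None passed (edgeR; 0.00657% of all genes), and none did with DESeq2 or limma voom. The single gene lower at an unadjusted p under 0.05 (4.07% of all genes) was Acot1, at 24.2, 33.3 and 18.4 CPM in Flox and 19.1, 10.2 and 7.3 CPM in KO (-1.05 ± 0.34, edgeR adjusted p = 0.601). KO library 1 lay inside the Flox range. Echs1 was the one gene of the 33 with separate groups, higher in KO as were 7.61% of all genes, so the count of 1 is not above the background. It stood at 309, 356 and 314 CPM against 289, 265 and 301 CPM (0.20 ± 0.12). Ech1 (-0.31 ± 0.16), Etfb (-0.25 ± 0.13) and Mlycd (-0.30 ± 0.18), next by p, overlapped between groups. KO labelled exercise 3 stood apart from the other 2, with a mean of the 33 genes that differed from that of Flox labelled exercise by -0.34 log2 units, against 0.07 and 0.06 in libraries 1 and 2. Without it 8 of the 33 were below 0 instead of 19. Library 3 also differed in cell markers. Its fibroblast mean was 7.21 log2 CPM, against 6.65 and 6.43 in libraries 1 and 2. The macrophage mean was 5.24, against 4.25 and 4.30. The cardiomyocyte mean was lower, 11.05 against 11.33 and 11.41. The part of these cells in its lower mean of the 33 genes was not tested. All 14 endothelial markers were below 0 in this comparison (median -0.36).

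Between labels in Flox hearts the 33 genes had small differences. The exercise label had 23 below and 10 above the sedentary label, with a median of -0.02 (0.01 over all genes), and scaling to cardiomyocyte markers turned this to 5 below with a median of 0.15. None passed, as was the case for all genes (edgeR; 0% of all genes), and neither DESeq2 nor limma voom called any of the 33. Acot1 was higher in each exercise library than in any sedentary one, by the values given above (0.76 ± 0.34, edgeR adjusted p = 0.661). Cpt1a (chromosome 19, 3322334 to 3385733) was lower, at 50.2, 45.4 and 37.9 CPM against 55.1, 60.03 and 58.1 CPM (-0.38 ± 0.15, adjusted p = 0.607). These were the 2 genes with an unadjusted p under 0.05 in either direction, against 7.41% of all genes. Pnpla2 was the third with separate groups, against 14.1% of all genes, and neither count is above the background. It stood at 242, 210 and 224 CPM against 257, 261 and 252 CPM (-0.19 ± 0.15). Ppara stood at 11.9, 11.1 and 9.5 CPM under the exercise label, within the wide sedentary range apart from its lowest library (-0.79 ± 0.40, adjusted p = 0.700). Acot1 made up 25.3% ± 5.13 of the summed CPM of Acot1 and Acot2 in Flox labelled exercise, and 14.7% to 16.9% on average in the other 3 groups.

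In KO hearts 30 of the 33 genes were higher under the exercise label than under the sedentary label (49.3% of all genes), with a median of 0.35 (0.00 over all genes). The exceptions were Pnpla2, Cpt1a and Acaa1a. None passed (edgeR; 0.0197% of all genes), DESeq2 called 1 of the 33 (Lpl) and 0.795% of all genes, and limma voom none of the 33. At an unadjusted p under 0.05, 16 were higher (4.35% of all genes), 7 of the 9 beta-oxidation genes and all 3 electron transfer genes among them. Separate groups were found for 3 genes, Lpl, Echs1 and Etfb (5.83% of all genes). Lpl stood at 4775, 5999 and 4503 CPM under the exercise label (0.50 ± 0.14, edgeR adjusted p = 0.305). Acadm stood at 948, 1077 and 802 CPM (0.54 ± 0.17, adjusted p = 0.334), its lowest library just under KO labelled sedentary 1. Etfa stood at 525, 565 and 451 CPM (0.43 ± 0.14, adjusted p = 0.355) and Echs1 was at 0.38 ± 0.12 (adjusted p = 0.359). These values share their sedentary libraries with the comparison of KO over Flox above, so the 2 are not independent. Without KO labelled sedentary 1 the number that passed was 8, while calls over all genes rose from 3 to 566 (3.63%). Without KO labelled sedentary 2 and 3 the median was 0.12 and 21 of the 33 were above 0. Atrial markers had differences below 0 in this comparison in 17 of 18 (median -1.17). With their mean as a covariate the median of the 33 genes was 0.23, 29 of them were above 0 and 5 rather than 16 were higher at an unadjusted p under 0.05. Cardiomyocyte markers were above 0 in 16 of 18 (median 0.23) and the 4 ventricular markers in all cases (0.54). Adipocyte markers were below 0 in 10 of 13 (median -1.10, 1 of them passing) and brown adipocyte markers in 4 of 6 (-0.75). Apart from the atrial covariate and the scaling to cardiomyocyte markers, which gave a median of 0.16 (0.20 with library totals alone), the part of these markers in the higher values was not tested.

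The difference between genotypes in the response to the label was above 0 for 32 of the 33 genes (47.9% of all genes), with a median of 0.33 (-0.02 over all genes) and Acot1 (-0.33 ± 0.49) as the exception. Scaled to cardiomyocyte markers, 13 were above 0 and the median was -0.04, with the median of all genes at -0.38. The median was 0.18 with the atrial covariate, 0.19 with library totals alone and 0.14 without KO labelled sedentary 2 and 3. None passed (edgeR; 0% of all genes), nor with DESeq2 or limma voom, and 6 had an unadjusted p under 0.05 (4.37% of all genes). Those with the smallest p were Echs1 (0.49 ± 0.18, edgeR adjusted p = 0.447), Acadm (0.63 ± 0.23, adjusted p = 0.459), Lpl (0.53 ± 0.20, adjusted p = 0.459) and Hadhb (0.59 ± 0.23, adjusted p = 0.471). That the groups of 1 label differ and those of the other do not is thus not shown for any single gene.

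Averaged over both labels, 31 of the 33 genes were lower in KO, with a median of -0.22 (0.00 over all genes). The median was -0.12 with the atrial covariate, -0.11 scaled to cardiomyocyte markers, -0.12 with library totals alone and -0.089 without KO labelled sedentary 2 and 3. None passed (edgeR; 0.0525% of all genes), DESeq2 called 3 of the 33 and 1.13% of all genes, limma voom none of the 33, and 12 had an unadjusted p under 0.05 (5.64% of all genes). Ech1 (-0.48 ± 0.11, edgeR adjusted p = 0.184), Etfb (-0.37 ± 0.09, adjusted p = 0.211), Acot1 (-0.88 ± 0.24, adjusted p = 0.233) and Eci1 (-0.34 ± 0.11, adjusted p = 0.302) had the smallest p. DESeq2 called the first 3 of these. Averaged over genotypes, 28 of 33 were higher under the exercise label with a median of 0.17. It was 0.11 with the atrial covariate, 0.096 with library totals alone and 0.057 without KO labelled sedentary 2 and 3. None passed (edgeR; 0.0263% of all genes), nor with DESeq2 or limma voom. At an unadjusted p under 0.05, 5 were higher (3.58% of all genes) and 1 lower (4.87% of all genes). Etfb (0.25 ± 0.09), Etfa (0.24 ± 0.10), Acot1 (0.60 ± 0.24) and Ech1 (0.26 ± 0.11) led them, and Cpt1a was the lower one (-0.25 ± 0.11).

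Of 113 other tested genes of the pathway, from a list that covers uptake, storage, activation, peroxisomes, ketone bodies and regulators, none passed in any comparison (edgeR). Under the sedentary label 78 were lower in KO (50% of all genes), with a median of -0.15 (0.00 over all genes). At an unadjusted p under 0.05, 18 were lower (5.41% of all genes). At the same threshold 7 were higher, a count given here without its share of all genes. Of 12 other mitochondrial enzymes of acyl-CoA breakdown 11 were below 0 (median -0.21). Regulators were below 0 in 22 of 27 (median -0.17) and peroxisomal genes in 10 of 15 (median -0.09). The genes with the smallest p went the other way. Acaca encodes an acetyl-CoA carboxylase, which makes malonyl-CoA. Its level was 14.4, 14.6 and 12.6 CPM in Flox labelled sedentary and 31.7, 17.6 and 25.5 CPM in KO (0.85 ± 0.18, edgeR adjusted p = 0.0826). It stood at 11.5 to 12.4 CPM in KO labelled exercise, below all 3 KO libraries labelled sedentary (-1.07 ± 0.18, adjusted p = 0.0862). Ucp2, an inner-membrane carrier of mitochondria, stood at 53.3, 83.9 and 75.7 CPM in Flox labelled sedentary and 137, 138 and 146 CPM in KO (0.98 ± 0.22, adjusted p = 0.0994). Plin1, the lipid droplet coat of fat cells, was at 0.00 to 1.30 CPM in Flox and 5.05 to 12.4 CPM in KO, beside the higher adipocyte markers in the same libraries. Under the exercise label G0s2, an inhibitor of the lipase encoded by Pnpla2, stood at 43.4, 31.7 and 49.2 CPM in Flox and 19.98, 26.05 and 25.1 CPM in KO (-0.80 ± 0.16, adjusted p = 0.523). Acox3, a peroxisomal acyl-CoA oxidase, and the nuclear receptor Esrrb were at 0.39 ± 0.12 and 0.56 ± 0.17 in that comparison.

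Between labels in Flox hearts the smallest p among these other genes belonged to regulators. Klf15, a transcription factor of nutrient use in heart and muscle, stood at 44.8, 63.0 and 40.3 CPM under the sedentary label and 31.5, 30.6 and 32.0 CPM under the exercise label (-0.66 ± 0.17, edgeR adjusted p = 0.456). Esrrb was at -0.60 ± 0.17 and the clock repressor Nr1d1 at -1.25 ± 0.37. In KO hearts Nr2f2, a nuclear receptor also known from atrial tissue, stood at 14.2, 28.4 and 40.6 CPM under the sedentary label and 12.2 to 15.6 CPM under the exercise label (-1.02 ± 0.31). Its order over the 3 sedentary libraries was that of their atrial markers.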

How the data were processed

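Estimated counts from Salmon, by gene symbol, make up the deposited table, per the submitters' processing notes, which also name FastQC and the builds mm9 and mm10 without a role. The authors did not scale these estimated counts between libraries. For versions, annotation and strand setting: not given in the sources used here. Of 55874 entries, 1696 that name vectors or other constructs were left out, and values were rounded to whole numbers.

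The test was edgeR's (version 4.0.16, R 4.3.3, with low counts removed by filterByExpr and TMM scaling, 1 model over 12 libraries, robust quasi-likelihood fit, Benjamini-Hochberg adjustment over 15226 genes at 0.05). All 33 genes passed the filter. A standard error is the absolute log2 change over the root of F. DESeq2 1.42.0 and limma 3.58.1 (voom), other scalings and filters, an atrial covariate, a replicate block and leaving out each library were alternatives. The edgeR fit of KO over Flox under the sedentary label was tried on simulated counts with 200 changed genes.

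The genes, steps and lists were chosen with earlier results of these data known, so no list is independent evidence. Genes with full values are, per comparison, the 4 of smallest p (none passed), the smallest p of each step in KO over Flox under the sedentary label, and the fixed examples Lpl, Cd36, Acsl1, Cpt1b, Acadvl, Acadm, Hadha, Etfdh and Ppara. Of the other pathway genes the 3 of smallest p per comparison are named. Ranges and counts describe the rest, with a few added for their step. Gene positions come from GENCODE M21 (GRCm38) and promoter windows from RefSeq.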

Additional observations from a re-analysis of the deposited data

How the results depend on the processing

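Of the 33 genes none passed in the main edgeR fit of any comparison. DESeq2 called 5 under the sedentary label between KO and Flox (Ech1, Etfb, Lpl, Etfa and Acadvl), 1 for the exercise label in KO (Lpl) and 3 for KO over Flox on average (Ech1, Etfb and Acot1). Limma voom, the other scalings and both other filters called none. Leaving out 1 library at a time gave 0 to 13 under the sedentary label between KO and Flox and 0 to 8 for the exercise label in KO, both highest without KO labelled sedentary 1, and 0 in the other comparisons. The median of the 33 genes under the sedentary label was -0.13 scaled to cardiomyocyte markers, -0.23 with the atrial covariate and -0.13 without the 2 libraries of highest atrial markers. Leaving out 1 library gave -0.59 to -0.31. For the exercise label in KO the median was 0.16 scaled to cardiomyocyte markers and 0.12 without those 2 libraries. The interaction median was -0.044 and 0.14 under the same settings. The cause was not tested. Without those libraries 7 of the 33 genes changed sign in the KO to Flox comparison of the sedentary label, which were Acsl1 (0.21), Cpt1a (0.20), Plin5 (0.19), Ppara (0.11), Acot2 (0.10), Lipe (0.08) and Mlycd (0.05). In the main fit 21 of the 33 genes were lower there at an unadjusted p under 0.05 (5.41% of all genes). The count was 6 with library totals alone, 1 scaled to cardiomyocyte markers and 1 with the atrial covariate. It was 10 to 29 leaving out 1 library and 27 with the replicate block. The share of all genes at that threshold was not computed in these other fits, so their counts have no background beside them. Deviations of same-numbered libraries had a median correlation of 0.00 over 18 pairs, from -0.32 to 0.31. With so few libraries a group this cannot tell whether the numbers pair them, and the labels do not say. With the replicate block the median was -0.44, no gene of the 33 passed in any comparison, and the count of all genes called under the sedentary label went from 19 to 37. That count was 394 with DESeq2, 9 with limma voom, 120 with no filter on low counts, 85 scaled to cardiomyocyte markers, 100 with library totals alone, 39 from the groups compared only, 3 with the atrial covariate and 2 to 479 leaving out 1 library, highest without KO labelled sedentary 1. For the exercise label in KO it was 3, against 121 with DESeq2, 0 with limma voom and 0 to 566 leaving out 1 library, again highest without KO labelled sedentary 1. For KO over Flox on average it was 8, against 172 with DESeq2 and 4 to 34 leaving out 1 library. DESeq2 called 49 genes for the exercise label in Flox, 50 for the interaction, 51 for the exercise label on average and 10 for KO over Flox under the exercise label, against 0, 0, 4 and 1.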
